A study of Mus musculus with 2 samples.

Results

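Of the 19537 genes listed for the sorted microglia of this series, 10 are described here: Nav2, Rcbtb2, Macf1, Gab1, S1pr1, Cbfa2t3, Upk1b, Fmo5, Myo18b and Gprasp2. They were picked by name because their transcript levels were higher in PARK7/DJ-1 knock-out (KO) than in wildtype (WT) microglia, so that the difference between the genotypes is a description and was not tested. Both groups came from littermates aged 3 to 4 months on a C57BL/6NCrl background, and both received an intraperitoneal injection of the bacterial membrane component lipopolysaccharide (LPS, 4 µg/g body weight) 24 h before the brains were taken. The KO mice carried a gene-trap insertion in Park7, the gene of DJ-1, in every tissue. Cells of the CD11b+CD45int gate were sorted and profiled by Drop-seq, where a bead tags the RNA of a cell with its barcode and each molecule with a unique molecular identifier (UMI). There were 2 groups, KO LPS and WT LPS, with 1 library each, and each library pooled 2 mice, 1 female and 1 male. Genotype, library and mouse cannot be told apart in this design, and no p-value is given.

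Microglia are the resident macrophages of the brain and read their surroundings through surface receptors and a mobile cytoskeleton. None of the 10 genes is a classical marker of microglial activation. They range from cytoskeletal linkers (Macf1, Nav2, Myo18b) and signal transducers (S1pr1, Gab1) to a transcriptional corepressor (Cbfa2t3), a membrane protein (Upk1b), an oxidising enzyme (Fmo5) and proteins with less well described roles in these cells (Rcbtb2, Gprasp2). Saa3, an acute-phase protein that macrophages make after LPS, served to sort the WT LPS cells.

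Barcodes with at least 500 UMIs and at least 100 genes were taken as cells, which gave 320 cells and 381305 UMIs in KO LPS and 1427 cells and 1989011 UMIs in WT LPS. The median cell held 963.5 UMIs in KO LPS against 1065 in WT LPS, and no cell barcode was shared between the libraries. Park7 had 1 UMI in KO LPS and 323 in WT LPS. Saa3 and Lcn2, both induced by LPS in macrophages, had 0 UMIs in the KO LPS cells against 8367 and 885 in the WT LPS cells, although both libraries were labelled as LPS injected. All 10 microglial markers were present in both libraries, and 9 of them were higher in KO LPS, such as P2ry12 at 9.46-fold, whereas C1qa was lower, at 0.536-fold. Choroid plexus markers summed to 2130 CPM (UMIs per 1e6 UMIs of the cells) in KO LPS against 15.1 CPM in WT LPS, astrocyte markers to 370 and 173 CPM, and endothelial markers to 86.5 and 17.1 CPM, with the defining endothelial gene Cldn5 at 1 UMI in each library. Neutrophil markers had 0 UMIs in KO LPS against 136 in WT LPS, and lymphocyte markers had 0 UMIs in both. Xist UMIs were seen in 209 KO LPS cells against 645 WT LPS cells, and Y-linked UMIs without Xist in 12 against 195. Of the cells with Xist, 9 and 80 also held Y-linked UMIs, and 99 and 587 cells held neither. Among the cells with such UMIs, the balance of female and male signal differed between the libraries, while the sex of many cells stayed unknown.

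The promoters of 7 of the 10 genes were found in a RefSeq table (GRCm38.p6, 250 bases before to 50 bases after each start). Of these, 3 are shown because they held a motif searched for on both strands: the ETS motif GAGGAAG, which the macrophage factor PU.1 and its relatives bind, or the letters TATAAA of a TATA box. The motif, or its reverse complement where it lies on the other strand, is in capitals.
Cbfa2t3, chr8:122699060-122699359, minus strand: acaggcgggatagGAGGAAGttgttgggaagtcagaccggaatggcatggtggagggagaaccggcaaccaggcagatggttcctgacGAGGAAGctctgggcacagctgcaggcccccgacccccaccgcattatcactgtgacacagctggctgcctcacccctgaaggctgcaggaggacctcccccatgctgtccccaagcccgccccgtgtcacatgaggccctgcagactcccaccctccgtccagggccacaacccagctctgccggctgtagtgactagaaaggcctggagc
Macf1, chr4:123684311-123684610, minus strand: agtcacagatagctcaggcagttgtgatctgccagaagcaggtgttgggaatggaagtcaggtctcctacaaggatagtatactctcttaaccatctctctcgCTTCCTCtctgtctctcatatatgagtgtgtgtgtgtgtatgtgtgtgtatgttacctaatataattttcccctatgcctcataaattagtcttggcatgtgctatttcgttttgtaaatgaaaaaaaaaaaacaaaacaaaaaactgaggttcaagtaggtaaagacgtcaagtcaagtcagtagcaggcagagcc
Fmo5, chr3:97628769-97629068, plus strand: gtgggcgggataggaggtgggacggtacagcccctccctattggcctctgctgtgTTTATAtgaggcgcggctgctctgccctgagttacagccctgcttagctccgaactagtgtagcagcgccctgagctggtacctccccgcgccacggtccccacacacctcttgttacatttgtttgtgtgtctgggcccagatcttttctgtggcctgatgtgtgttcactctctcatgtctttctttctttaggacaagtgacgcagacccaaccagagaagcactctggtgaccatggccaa
The ETS motif stood in 2 of the 11 promoters listed for these 7 genes and in 13.6% of 32851 promoters of all genes, and the letters TATAAA in 1 of 11 and in 13.6%. Matches were counted on either strand at any place in the window, so TATAAA need not be a working TATA box. In Fmo5 it lay on the other strand. The AP-1 motif TGANTCA (7.81% of all promoters) and the C/EBP-type site TTGCAA (6.23%) were found in 0 of the 11. These matches describe the letters in this window and were not tied to the levels below. The median promoter of the group held 12 CpG dinucleotides, against 7 over all promoters. Single promoters ran from 1 (Rcbtb2) to 53 (Cbfa2t3), and the 2 listed for Gab1 overlap for most of their length. S1pr1, Upk1b and Myo18b were not matched.

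The cytoskeletal genes ran from the most abundant of the 10 to one of the low genes. Macf1 (GRCm39, chromosome 4, 123243384 to 123581331, minus strand) encodes a spectraplakin that ties microtubules to actin. It had 1113 UMIs in KO LPS (2919 CPM, 95% interval 2750 to 3096) and 2281 in WT LPS (1147 CPM, 1100 to 1195), a ratio of 2.55 (2.37 to 2.74). Macf1 was thus the most abundant of the 10 in both libraries and had the smallest ratio between them. Nav2 (chromosome 7, 48558464 to 49259838, plus strand) encodes a neuron navigator, a protein of microtubule ends. It was at 417 CPM in KO LPS (159 UMIs, 355 to 487) against 54.8 CPM in WT LPS (109 UMIs, 45 to 66.1), 7.61-fold apart (5.93 to 9.80). Myo18b (chromosome 5, 112836741 to 113044304, minus strand), an unconventional myosin best known from striated muscle, had 46 UMIs in 34 cells of KO LPS against 7 UMIs in 5 cells of WT LPS, 3 of them in 1 cell. Its levels were 121 CPM (88.3 to 161) and 3.52 CPM (1.41 to 7.25), and the ratio was 34.3 (15.4 to 90.0). Intervals here and below are exact and cover counting error only, not the spread between mice or libraries.

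Among the signal transducers, S1pr1 (chromosome 3, 115504071 to 115508721, minus strand), a receptor for sphingosine 1-phosphate, was at 78.7 CPM in KO LPS (30 UMIs, 53.1 to 112) against 4.52 CPM in WT LPS (9 UMIs, 2.07 to 8.59). The 30 UMIs lay in 20 of the 320 cells, and the ratio was 17.4 (8.05 to 41.6). S1pr1 is strong in endothelium, so the endothelial markers above stand beside it: 33 UMIs in KO LPS against 34 in WT LPS over 5 genes, which per UMI of the library is 5.06-fold higher in KO LPS (3.04 to 8.42). Of these genes, Pecam1 had 16 UMIs in KO LPS against 25 in WT LPS (3.34-fold), and Flt1 14 UMIs, in 3 cells, against 3 (24.3-fold). The S1pr1 ratio without the cells that held markers of other types is given with the cell sets. Gab1 (chromosome 8, 81491061 to 81607279, minus strand), a docking adaptor below growth factor receptors, had 17 UMIs (44.6 CPM, 26.0 to 71.4) in KO LPS and 8 (4.02 CPM, 1.74 to 7.93) in WT LPS, 11.1-fold apart (4.53 to 29.7). It held the fewest UMIs of the 10 in KO LPS, and after every cell was thinned to 500 UMIs the ratio was 3.34 (0.490 to 19.8), from 3 and 4 UMIs.

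Cbfa2t3 (chromosome 8, 123351878 to 123426045, minus strand) encodes a corepressor of the ETO family that acts in blood cell development. It had 43 UMIs in 33 cells of KO LPS (113 CPM, 81.6 to 152) against 6 UMIs in 6 cells of WT LPS (3.02 CPM, 1.11 to 6.57), a ratio of 37.4 (15.8 to 107). No KO LPS cell held more than 2 of its UMIs. Rcbtb2 (chromosome 14, 73360477 to 73445338, plus strand) carries RCC1 repeats and a BTB domain, and overlaps the tumour suppressor gene Rb1 on the other strand. It was at 299 CPM in KO LPS (114 UMIs, 247 to 359) against 46.8 CPM in WT LPS (93 UMIs, 37.7 to 57.3), 6.39-fold apart (4.82 to 8.50).

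Upk1b (chromosome 16, 38591981 to 38620727, minus strand), a tetraspanin first known from the bladder lining, had 30 UMIs in KO LPS (78.7 CPM, 53.1 to 112) and 4 in WT LPS (2.01 CPM, 0.548 to 5.15), a ratio of 39.1 (13.8 to 153). Fmo5 (chromosome 3, 97531564 to 97562598, plus strand), a flavin-containing monooxygenase, had 21 UMIs (55.1 CPM, 34.1 to 84.2) and 10 (5.03 CPM, 2.41 to 9.25), a ratio of 11 (4.94 to 26.1). Gprasp2 (chromosome X, 134739396 to 134745480, plus strand) belongs to a family that binds G protein-coupled receptors on their way to degradation. With 26 UMIs in KO LPS (68.2 CPM, 44.5 to 99.9) and 2 in WT LPS (1.01 CPM, 0.122 to 3.63) it had the largest ratio and the widest interval, 67.8 (17.0 to 590). The 3 KO LPS cells richest in Gprasp2 held 38.5% of its UMIs, against 38.1% for Fmo5 and 30% for Upk1b. With every cell thinned to 500 UMIs its log2 ratio was 4.14, and Myo18b was higher, at 5.40. Gprasp2 overlaps Bhlhb9 on the same strand, and Bhlhb9 itself had 16 and 3 UMIs, so that the split of reads between the pair is uncertain.

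**Figure D1:**
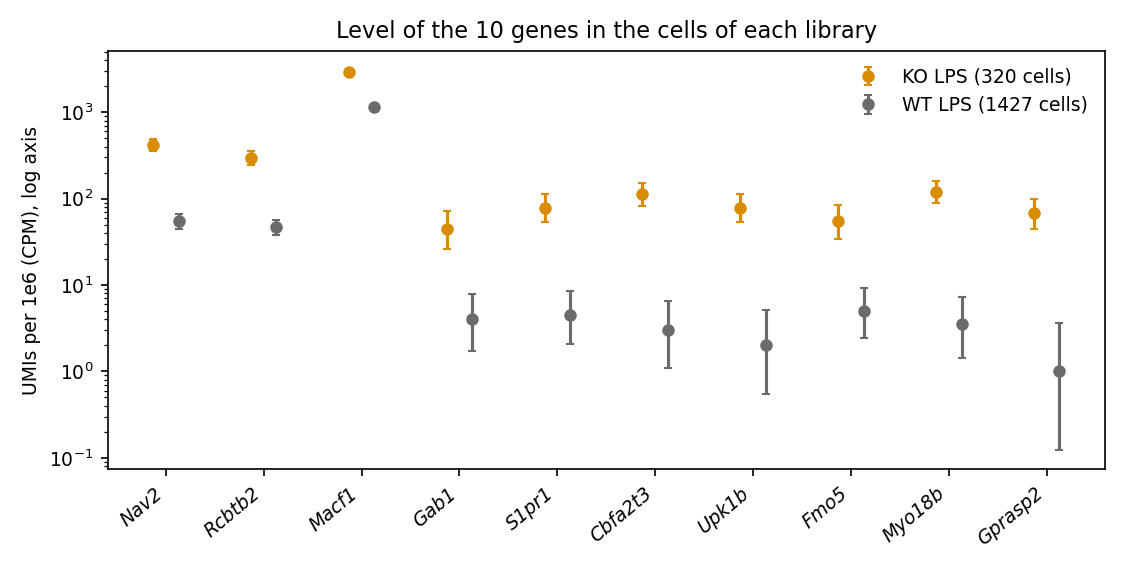
Level of each of the 10 genes (UMIs per 1e6 UMIs of the cells, log axis) in the 320 cells of KO LPS (orange) and the 1427 cells of WT LPS (grey), 1 library each. Bars are exact 95% Poisson intervals for counting error. Macf1 sat at 2919 and 1147 CPM, Nav2 and Rcbtb2 between 299 and 417 CPM in KO LPS, and the other 7 genes between 44.6 and 121 CPM in KO LPS and between 1.01 and 5.03 CPM in WT LPS.

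All 10 genes were at least 2-fold higher in KO LPS, beside 12.9% of the 9085 genes that reached 20 UMIs in the libraries together. All 10 intervals lay above 1, beside 19.6% of those genes. These counts follow from how the genes were chosen and carry no weight of their own. The median log2 ratio of the 10 was 3.67, against -0.02 over all 9085 genes. Only Nav2, Rcbtb2 and Macf1 had at least 20 UMIs in WT LPS alone, where 10.5% of 8563 genes were at least 2-fold higher in KO LPS. The other 7 passed the limit through their KO LPS UMIs, which summed to 213 against 46 in WT LPS, a ratio of 24.2 (17.5 to 34.0). By their fold the 10 genes ranked from 6 (Gprasp2) to 613 (Macf1) among the 9085.

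Gene length moved with the ratio over the 8317 of 9085 tested genes whose span was found by symbol. Nav2, Macf1, Myo18b and Gab1 span 701, 338, 208 and 116 kb of the genome. Of the 1050 tested genes that span 100 kb or more, 27.2% were at least 2-fold higher in KO LPS, with a median log2 ratio of 0.50, against 10.6% and -0.09 of the 7267 shorter genes. The part of this in the values of the 4 long genes was not tested. The other 6 genes span 4.65 kb (S1pr1) to 84.9 kb (Rcbtb2).

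The higher levels in KO LPS were present at each depth. In cells with 500 to 1000 UMIs, the 9 genes other than Macf1 summed to 1488 CPM in KO LPS against 146 CPM in WT LPS, 10.2-fold apart (7.71 to 13.6). In cells with 1000 to 2000 UMIs the ratio was 8.90 (6.79 to 11.7), and in deeper cells 11.8 (8.99 to 15.5). Cells with an Xist UMI gave 13.6 (10.9 to 17.0), with Nav2 at 10.7 (7.55 to 15.4) and the 7 genes of low level at 53.2 (29.7 to 105). The 12 KO LPS cells with a Y-linked UMI and no Xist UMI held 18 UMIs of the 9 genes, a ratio of 6.08 (3.39 to 10.4) over the 195 such cells of WT LPS. In these few cells Nav2 was 4.51-fold apart (1.69 to 10.4) and Macf1 1.24-fold (0.765 to 1.90), and S1pr1 had 0 UMIs in KO LPS against 2 in WT LPS. Without the cells that held 2 or more UMIs of another cell type's markers (45 of KO LPS and 77 of WT LPS), the 9 genes were 10.1-fold apart (8.50 to 11.9), and S1pr1 kept 20 UMIs against 8, a ratio of 14.9 (6.27 to 39.0).

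To compare the share of cells that held a gene, every cell was thinned to 500 UMIs. Nav2 was then present in 19.4% of the KO LPS cells (62 of 320, exact interval 15.2 to 24.1) and 2.38% of the WT LPS cells (34 of 1427, 1.66 to 3.31). Rcbtb2 was present in 14.4% (10.7 to 18.7) and 2.52% (1.77 to 3.48), and Macf1 in 74.4% (69.2 to 79.1) and 42.5% (39.9 to 45.1). At full depth the shares were 34.4% and 6.59% for Nav2, 24.4% and 6.03% for Rcbtb2, and 86.3% and 64.7% for Macf1. The other 7 genes were found in 0.938% (Gab1) to 4.38% (Myo18b) of the thinned KO LPS cells and in 0.0701% to 0.280% of the WT LPS cells. At least 1 of the 9 genes other than Macf1 was present in 145 KO LPS cells (45.3%, 39.8 to 50.9) and 83 WT LPS cells (5.82%, 4.66 to 7.16). At least 2 of the 9 were present together in 7.5% and 0.420% of the cells. No thinned cell of either library held more than 3 of the 10 genes.

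The shares were set beside the RNA outside the cells. In barcodes with 100 UMIs or fewer, taken as near-empty, Nav2 was at 448 CPM in KO LPS against 57.0 CPM in WT LPS, close to its levels in the cells. A droplet of 500 UMIs drawn from that RNA alone would hold Nav2 in 20.1% of KO LPS and 2.81% of WT LPS draws, Rcbtb2 in 13.6% and 3.27%, and Macf1 in 85.2% and 64.1%. In KO LPS the share of 0 of the 10 genes had its interval above this background, beside 13.9% of all 9085 genes tested. For 8 genes the interval contained it, and for 2, Macf1 and Cbfa2t3, it lay below, beside 5.35%. In WT LPS 3 intervals lay above it (beside 37.5%), 6 contained it and 1 lay below (beside 14.3%). That is the background of a droplet made of free RNA alone. How much of a cell's UMIs could be free RNA was limited by the gene lowest in cells relative to near-empty barcodes among the 500 leading genes of the latter, to 2.52% in KO LPS (Gm10717, 3 UMIs in cells and 62 outside) and 16.3% in WT LPS. At these limits, each resting on 1 gene, free RNA would give Nav2 in 0.563% of KO LPS and 0.464% of WT LPS cells, and the intervals of all 10 shares in KO LPS and of 8 in WT LPS lay above such values, beside 89.9% and 97.9% of the genes tested, so that little is read from these counts. For draws of free RNA alone in WT LPS, the backgrounds of Gab1, Upk1b and Myo18b were at 0 because the near-empty barcodes held none of their UMIs. These were the 3 genes whose intervals lay above that background in WT LPS. Any gene seen in 1 cell would lie above a background of 0.

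**Figure D2:**
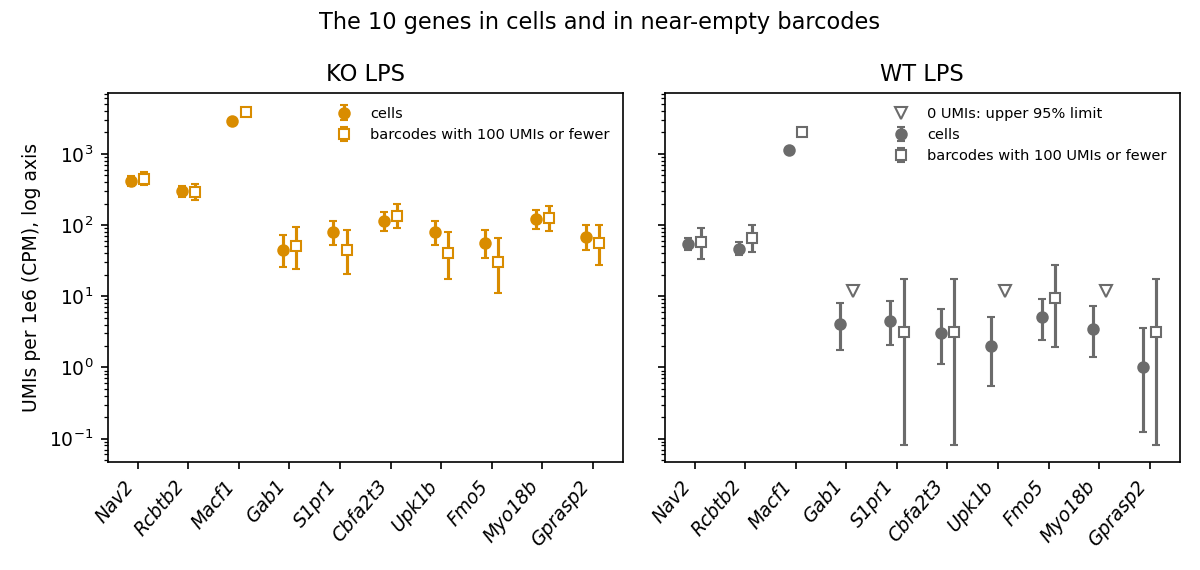
Level of the 10 genes (CPM, log axis) in cells (filled circles) and in barcodes with 100 UMIs or fewer (open squares) of KO LPS (left) and WT LPS (right), with exact 95% Poisson intervals. A triangle marks the upper end of the interval, 11.7 CPM, where the near-empty barcodes held 0 UMIs. In KO LPS the intervals of both kinds of barcode overlapped for the 9 genes other than Macf1, such as Myo18b at 121 and 126 CPM.

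The WT LPS cells were then split by Saa3 at equal depth, to see whether the transcripts sat in cells without Saa3. After thinning to 500 UMIs, 993 of the 1427 cells (69.6%, 67.1 to 72.0) held no Saa3 UMI and 434 (30.4%) held at least 1. A droplet of free RNA alone would hold a Saa3 UMI in 48.3% of draws, and free RNA at its limit of 16.3% of the UMIs would give 1 in 10.2% of the cells, so that not every cell with 1 Saa3 UMI need have made it. Lcn2, another LPS-induced gene, was lower without Saa3, at 284 against 770 CPM (0.369-fold, 0.293 to 0.465), whereas Gpr84 and Msr1, both scarce in KO LPS, were at 0.902-fold (0.750 to 1.09) and 0.936-fold (0.828 to 1.06). P2ry12, a purinergic receptor of resting microglia, was 1.39-fold higher without Saa3 (1.05 to 1.87), and the microglial marker Siglech was at 0.999-fold (0.750 to 1.34).

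Nav2 was at 56.4 CPM in cells without Saa3 (28 UMIs) and 36.9 CPM in cells with Saa3 (8 UMIs), a ratio of 1.53 (0.679 to 3.88). Rcbtb2 had 29 and 7 UMIs (1.81, 0.776 to 4.90), and Macf1 653 and 250 UMIs (1.14, 0.985 to 1.33). The 7 genes of low level together had 18 and 2 UMIs, a ratio of 3.93 (0.942 to 35). Counted singly, 9 of the 10 genes had a ratio over 1, beside 53.3% of the 5761 genes with at least 20 thinned UMIs, but only 3 of the 10 reached 20 UMIs. None of the 10 intervals lay above 1, beside 2.97% of those genes. Gprasp2 had its single UMI in a cell with Saa3.

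The 9 genes other than Macf1 summed to 75 UMIs without and 17 with Saa3, a ratio of 1.93 (1.13 to 3.48), but this value moved with the random draw. A second thinning gave 64 and 24 UMIs (1.17, 0.724 to 1.96), with Nav2 at 0.742 (0.386 to 1.47) and Rcbtb2 at 3.37 (1.02 to 17.5). Thinning to 1000 UMIs gave 0.836 (0.539 to 1.31) and removing the Saa3 UMIs before thinning 1.18 (0.767 to 1.85). At full depth, with Saa3 left out of the totals, the 9 genes had 140 and 108 UMIs, a ratio of 1.25 (0.962 to 1.62), and the 7 genes of low level 23 and 23. Against the 205 cells with 3 or more Saa3 UMIs, in place of those with at least 1, the 9 genes had 75 and 6 UMIs, a ratio of 2.58 (1.13 to 7.25). The interval of the sum thus lay above 1 with the first thinning, under either limit for Saa3, and contained 1 with the second thinning, at 1000 UMIs, with Saa3 status from all UMIs, with Saa3 removed, with Lcn2 or Msr1 in place of Saa3, and at full depth. The cells with 3 or more Saa3 UMIs had Macf1 at 1005 CPM (820 to 1219), below the 1315 CPM (1216 to 1420) of cells without Saa3, a ratio of 1.31 (1.06 to 1.63). They had 0 UMIs of the 7 genes of low level, with an exact interval of 0 to 36.0 CPM. For Macf1 in cells without over cells with Saa3, the second thinning gave 1.07 (0.924 to 1.25), thinning to 1000 UMIs 1.01 (0.875 to 1.17), removing the Saa3 UMIs 0.987 (0.861 to 1.13) and full depth 0.992 (0.913 to 1.08).

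**Figure D3:**
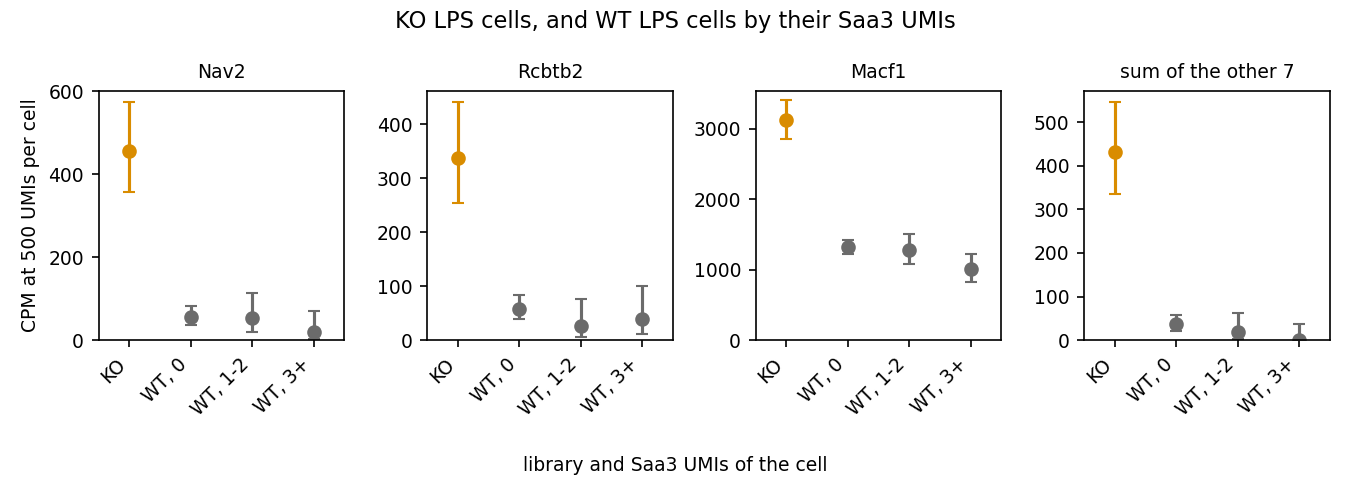
Level (CPM after thinning every cell to 500 UMIs) of Nav2, Rcbtb2, Macf1 and the sum of the other 7 genes in KO LPS cells (orange) and in WT LPS cells with 0, 1 to 2, or 3 or more Saa3 UMIs (grey), with exact 95% Poisson intervals. Each KO LPS level stood above the 3 WT LPS classes, for Nav2 at 456 CPM against 56.4, 52.4 and 19.5 CPM, while the intervals of the WT LPS classes overlapped in each panel.

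The gap between the genotypes was present against the WT LPS cells without Saa3 as well. Nav2 was 8.09-fold higher in KO LPS than in those cells (5.17 to 13), Rcbtb2 5.78-fold (3.61 to 9.41), Macf1 2.38-fold (2.11 to 2.67) and the 7 genes of low level together 11.9-fold (7.0 to 21.2). All 10 genes were at least 2-fold higher, beside 11% of the 5604 genes with at least 20 thinned UMIs, a limit that only Nav2, Rcbtb2 and Macf1 met, and the genes were chosen on this difference. Their median log2 ratio was 3.05, or 2.92 with Gprasp2, which had 0 UMIs in those WT LPS cells, set to the 7.24-fold that a floor of 3 UMIs over the group gives (the exact interval starts at 4.47-fold). Against all thinned WT LPS cells it was 3.38. Gab1 had 3 UMIs in the thinned KO LPS cells and 4 in the WT LPS cells without Saa3, a ratio of 2.33 (0.341 to 13.8).

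The genes whose pattern over KO LPS, WT LPS without Saa3 and WT LPS with Saa3 was most like the median of the 10 were sought among 2459 other genes with at least 200 UMIs. The measure was the Euclidean distance of log2 levels over these 3 sets of cells, each taken relative to the gene's own mean over the 3, so that it compares patterns and not the height of the levels. It holds the KO LPS over WT LPS difference on which the 10 genes were chosen, so genes much higher in KO LPS tend to lie near. Its Saa3 part came from the first thinning, where the median log2 ratio of the 10, without over with Saa3, was 1.06. That median was 0.52 with the second thinning, -0.46 at 1000 UMIs and 0.14 at full depth. P2ry12 was nearest (distance 0.261), at 3581, 411 and 295 CPM. Col27a1, a fibrillar collagen, followed (0.638), at 338, 48.3 and 41.5 CPM. Sox4, a transcription factor (0.694), Zcchc11, an RNA uridylyl transferase (0.718), and Gpr34, a lysophospholipid receptor of microglia (0.733), came next. Of the 10 genes themselves, Nav2 lay at 0.228, Rcbtb2 at 0.407 and S1pr1 at 0.591. The others lay farther than Gpr34: Upk1b at 0.942, Fmo5 at 1.03, Cbfa2t3 at 1.04, Gab1 at 1.24, Myo18b at 1.64, Macf1 at 1.74 and Gprasp2 at 2.63. Their median is therefore not a pattern shared by all 10.

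Relatives and partners of the 10 genes shared their direction only in part. Of 145 such genes, 136 were in the matrices and 108 had at least 20 UMIs. Among these, 21 were at least 2-fold higher in KO LPS and 6 at least 2-fold lower, beside 12.9% and 17.1% of all 9085 genes tested. Their intervals lay above 1 for 47 and below 1 for 7, beside 19.6% and 18.7%, and the median log2 ratio was 0.44, against -0.02 over all genes tested. In the microtubule group (17 tested, median 0.74) 4 were at least 2-fold higher and 0 lower. Nav1, a second navigator, was 5.56-fold higher (3.27 to 9.48), and Dst, a spectraplakin like Macf1, was at 0.811-fold (0.734 to 0.895). Dctn1, a dynactin subunit, was lowest, at 0.580-fold (0.224 to 1.27). Here and in the next groups, the lowest and the leading gene were sought among those with at least 50 UMIs.

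In the sphingosine 1-phosphate system (12 tested, median 0.47) 3 genes were at least 2-fold higher, led by the G protein subunit Gna12 at 2.69-fold (1.71 to 4.16), and 0 were lower. The lipid phosphatase Ppap2a was lowest, at 0.827-fold (0.422 to 1.49). The other sphingosine 1-phosphate receptors were almost absent: S1pr2 had 0 UMIs in KO LPS against 10 in WT LPS, S1pr4 0 and 2, and S1pr5 1 and 1. In the Gab docking group (18 tested, median 0.50) 1 was at least 2-fold higher, the lipid phosphatase Inpp5d at 2.33-fold (2.04 to 2.64), and the adaptor Dok3 was lowest at 0.518-fold (0.283 to 0.882).

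Among the ETO corepressor and its partners (17 tested, median 0.47) 5 were at least 2-fold higher and 0 lower. Lyl1, a transcription factor of blood cells, led at 2.78-fold (1.76 to 4.30), and the deacetylase Hdac2 was lowest at 0.679-fold (0.397 to 1.10). Runx1, another factor of blood cell development, was at 1.01-fold (0.780 to 1.29). In the group with RCC1 or BTB domains (13 tested, median 0.51) 3 were at least 2-fold higher and 2 lower. Klhl24 led at 3.36-fold (2.30 to 4.88), and Spop was lowest at 1.15-fold (0.909 to 1.43). The 2 lower genes, Rcc1 and Rccd1, held fewer than 50 UMIs, with 2 each in KO LPS and intervals that contained 1.

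The tetraspanins and uroplakins went both ways (14 tested, median 0.23, 2 at least 2-fold higher and 2 lower). Tspan13 was 2.36-fold higher (1.53 to 3.59), whereas Cd63, a tetraspanin of lysosomes, was at 0.25-fold (0.198 to 0.311). The uroplakin relatives Upk1a and Upk3b had 0 UMIs in both libraries. Of the myosin heavy chains (13 tested, median 0.18), Myo18a, the nearest relative of Myo18b, was 2.32-fold higher (1.59 to 3.34) and Myo1e was at 0.271-fold (0.0720 to 0.722). Of the Gprasp and Armcx family (4 tested, median 0.25), Gprasp1 was 3.88-fold higher (2.89 to 5.19) and Armcx3 was at 0.707-fold (0.292 to 1.49). No other flavin-containing monooxygenase reached 20 UMIs, and the 2 in the matrices summed to 1 and 4 UMIs.

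**Figure D4:**
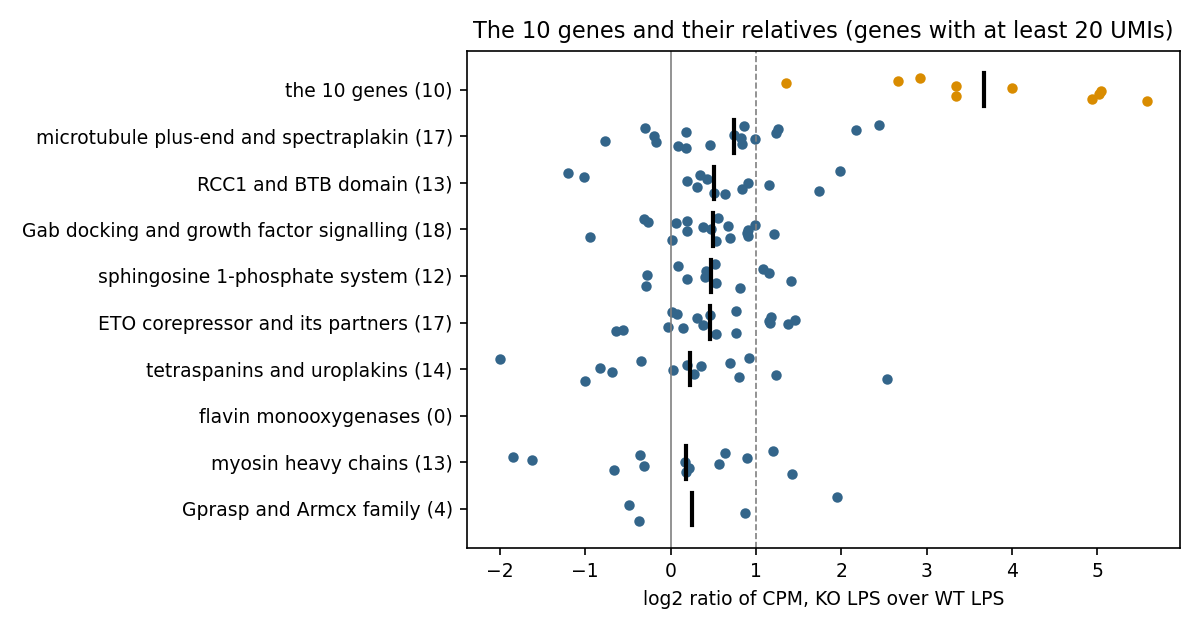
Log2 ratio of CPM, KO LPS over WT LPS, of the 10 genes (orange) and of the tested genes in 9 groups of relatives (blue), with the number of genes in brackets and the median as a black bar. The solid line marks 0 and the broken line 2-fold higher in KO LPS. The 10 genes, which were chosen on this ratio, have a median of 3.67, and the medians of the groups with tested genes run from 0.18 to 0.74.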

How the data were processed

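The authors deposited 1 matrix of raw counts per library, UMIs per gene and barcode, not normalised and not filtered to cells. STAR and bcl2fastq 2.0 are named in the submitters' processing notes without a role, and mm9 and mm10 as builds. The strand setting of counting is not given in the sources used here, so genes that overlap others are uncertain. Missing values were read as 0 (5616 genes in KO LPS and 3036 in WT LPS).

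Each matrix held 9999 barcodes, with 684738 UMIs for KO LPS and 3063795 for WT LPS. Cells were barcodes with at least 500 UMIs and 100 genes (55.7% and 64.9% of the UMIs). Doublets were left in. UMIs were summed over the cells of a library and given as CPM, with exact intervals at 95% (Poisson for levels, conditional binomial for ratios, Clopper-Pearson for shares). Log2 ratios used a prior count of 0.5. Genes that reached 20 UMIs in the libraries together counted as tested for the background shares, although no significance test was made with 1 library per genotype. Thinning drew UMIs without replacement with a fixed seed, and Saa3 status was read from the thinned cell. Free RNA was the summed profile of barcodes with 1 to 100 UMIs.

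The members and lists were chosen with earlier results of these data known. Besides the 10 genes, those named were Park7 and Saa3, the highest and lowest gene of a list with at least 50 UMIs, and the 5 genes with the most similar pattern over the sets of cells. Dst, Runx1, S1pr2, S1pr4, S1pr5, Upk1a, Upk3b, Bhlhb9, Lcn2, Gpr84, Msr1, Siglech, Cldn5, Pecam1 and Flt1 were named after their values were seen, for their closeness to a member or as checks. Positions are GRCm39 (GENCODE vM39), found by symbol. The calculations ran in Python (3.11.15) with scipy 1.17.1, numpy 2.4.6 and pandas 2.3.3 and were tested on simulated data. Alternatives covered the cell threshold, scaling, thinning, free RNA, cells of either sex, cells with markers of other types, the deepest cells, the prior count and the Saa3 rule.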

Additional observations from a re-analysis of the deposited data

Results flagged for a closer look

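Barcodes with 100 UMIs or fewer served above as the background of the shares and of the Saa3 split, and in an alternative as the free RNA subtracted. In those of KO LPS, 9 of the 10 genes stood above their level in the same kind of barcode of WT LPS. The intervals of these ratios lay above 1, beside 11.4% of the 9085 genes tested. The genes had been chosen for this direction in the cells. The KO LPS levels there were 448 CPM for Nav2, 292 for Rcbtb2, 3819 for Macf1, 50.3 for Gab1, 45.3 for S1pr1, 136 for Cbfa2t3, 40.3 for Upk1b, 126 for Myo18b and 55.4 for Gprasp2. The ratios to WT LPS were 7.86 (4.70 to 13.9) for Nav2, 4.39 (2.62 to 7.61) for Rcbtb2 and 1.86 (1.68 to 2.07) for Macf1. For Gab1, Upk1b and Myo18b the WT LPS barcodes held 0 UMIs. For Fmo5, at 6 and 3 UMIs, the ratio was 3.18 (0.679 to 19.6).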

How the results depend on the processing

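All 10 genes were at least 2-fold higher in KO LPS under each alternative for cells, scaling, free RNA and filters except in cells with a Y-linked UMI and no Xist UMI (12 cells of KO LPS), where 7 were. Their median log2 ratio ran from 3.04 with a prior count of 5 to 4.86 in cells with an Xist UMI. In the Y-linked cells S1pr1 turned to -1.63 (0 UMIs against 2), Gprasp2 had no UMI and gave no value, and the median difference in the share of cells, 3.31 percentage points over the 10 genes, was 0.385. With cells thinned to 1000 UMIs it was 8.46. The count of genes higher in WT LPS cells without Saa3, 9 as reported, was 9 with 3 or more Saa3 UMIs as the limit, 8 with Saa3 status from all UMIs, 8 with Lcn2 in place of Saa3, 6 with a second thinning, 4 with cells thinned to 1000 UMIs and 5 with the Saa3 UMIs removed before thinning, 5 with Msr1 in place of Saa3, and 5 at full depth, an alternative chosen after seeing the data, as was a shorter list of markers of other cell types. Depth limits the 7 genes of low level most, with 46 UMIs in all of WT LPS. No replicate could be left out with 1 library per genotype. No paired analysis was possible because each genotype had 1 library and no result came from a test.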
